A study of Homo sapiens with 6 samples.

Results

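The nuclear genes of respiratory complex I were examined in PC9 cells that overexpressed the G or the A allele of the FOXM1 variant rs3742076. Members were the genes of the deposited gene table that list protein_coding among their transcript types and whose symbols follow the NDUF scheme, that is NDUFA, NDUFB, NDUFC, NDUFS, NDUFV or NDUFAF with a number, and NDUFAB1. The rule gave 46 of 58825 genes: 7 core subunits, 31 accessory subunits and 8 assembly factors. Of the 46, 8 carry protein_coding as their only transcript type, and the others list it beside further types. PC9 is a human lung adenocarcinoma cell line with an activating EGFR mutation, gefitinib is an inhibitor of the EGFR kinase, and FOXM1 is a transcription factor of the cell division programme. There were 3 libraries of cells overexpressing the G allele (G) and 3 of cells overexpressing the A allele (A), and the cells of both groups had received gefitinib at 100 nM for 24 h. The vector and its promoter, the FOXM1 alleles already present in the cells and whether each group is 1 clone are not stated in the labels. No library without FOXM1 overexpression or without gefitinib was analysed here.

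Complex I is the NADH dehydrogenase of the mitochondrial inner membrane and the largest enzyme of the respiratory chain. It passes electrons from NADH through a flavin and a row of iron-sulfur clusters to ubiquinone and pumps protons across the membrane. The core subunits are those shared with bacterial complex I, and in humans the membrane-bound core subunits are encoded by mitochondrial DNA while the core subunits of the matrix arm come from nuclear genes. The accessory subunits surround this core, and the assembly factors build the enzyme but do not remain in it. The subunits are grouped into the N module, which oxidises NADH, the Q module, which reduces ubiquinone, and the proximal and distal parts of the membrane arm.

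Values were the authors' FPKM, that is fragments scaled by length and by the mapped fragments of the library. The deposited gene values are not sums of the transcript values. That of NDUFS6 lay below its most abundant transcript in every library, so levels can be compared between genes only roughly. Read counts could not be recovered from the FPKM, so depth is unknown, and no counting interval is given. The epithelial markers EPCAM, KRT7, KRT8, KRT18, KRT19, CDH1 and EGFR were all detected, with summed levels of 2697, 2951 and 2860 FPKM in G and 2862, 3402 and 3064 FPKM in A. Of 8 markers of other cells only COL1A1 passed the filter on low values, and their sums were 3.30, 3.35 and 3.26 FPKM in G and 3.28, 2.74 and 3.25 FPKM in A. FOXM1 stood at 14.6, 14.3 and 14.0 FPKM in G and at 25.5, 10.5 and 10.1 FPKM in A, so A replicate 1 was high in the overexpressed gene. The labels do not say that the libraries came from separate cultures, and the p-values then describe only how these libraries vary, possibly for technical reasons.

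The levels of the members spanned a wide range, as deposited and with the limit on comparing genes given above. Among the subunits without NDUFA4, mean levels over the 6 libraries differed 101-fold from the lowest to the highest, and 26 subunits reached 10 FPKM. The median level was 13.1 FPKM over the 7 core subunits (range 4.64 to 26.5), 20.2 FPKM over the 31 accessory subunits (2.50 to 252) and 4.10 FPKM over the 8 assembly factors (0.662 to 6.44). By position in the enzyme, the median was 21.4 FPKM over the 8 genes listed for the N module and 9.49 FPKM over the 5 for the Q module. It was 20.4 FPKM over the 9 for the proximal arm and 25.0 FPKM over the 11 for the distal arm, NDUFB1 to NDUFB11. These lists leave out NDUFA4, NDUFA6, NDUFA7, NDUFA9 and NDUFAB1.

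The highest members were NDUFS5 and NDUFA1, both small accessory subunits of the proximal membrane arm. NDUFS5 (chromosome 1, 39026318 to 39034636, plus strand; GRCh38 throughout) had 248, 242 and 237 FPKM in G and 238, 265 and 283 FPKM in A. NDUFA1 (X, 119871832 to 119876662, plus strand) had 231, 221 and 247 FPKM in G and 218, 261 and 290.2 FPKM in A. Their groups overlapped, and at these spreads the order of both genes is not separated. NDUFB7 followed at a mean of 165 FPKM, and then NDUFB3, NDUFB10 and NDUFA8 at 56.7, 55.0 and 48.0 FPKM. NDUFS5 and NDUFA1 together held 37.3% of the summed level of the nuclear subunits. The lowest members were NDUFAF4, which joins NDUFAF3 in building the Q module, at a mean of 0.662 FPKM, and NDUFAF5, an enzyme that hydroxylates an arginine of NDUFS7, at 1.57 FPKM. NDUFAF5 had 1.57, 1.56 and 1.61 FPKM in G and 1.58, 1.49 and 1.58 FPKM in A.

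**Figure D1:**
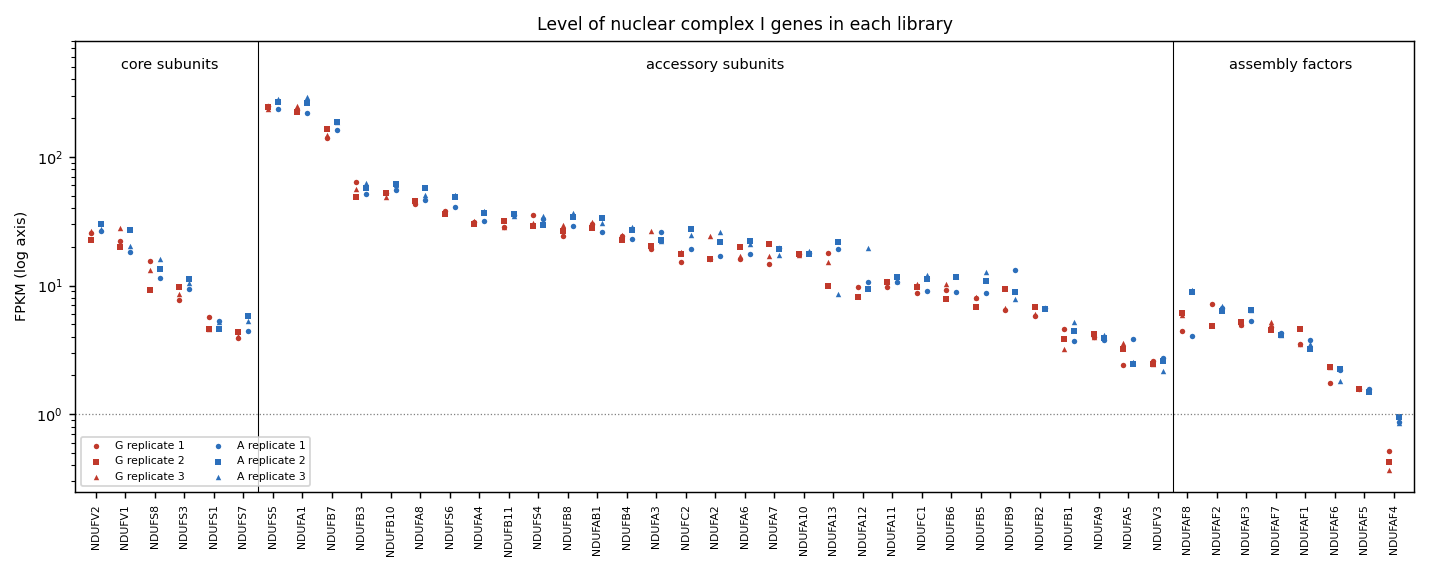
Level of 45 of the 46 members, in FPKM on a log axis, with 1 point per library, G (red) left of A (blue), grouped into core subunits, accessory subunits and assembly factors, and a dotted line at the filter of 1 FPKM. NDUFS5 and NDUFA1 lie highest, at means of 252 and 245 FPKM, and the 8 assembly factors lie between 0.662 and 6.44 FPKM.

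G against A was compared gene by gene to see which members differed between the alleles. No member passed the test, while most had a somewhat lower level in G than in A. Of the 46 members, 45 passed the filter of at least 1 FPKM in at least 3 libraries, and NDUFAF4 did not. With limma on log2(FPKM + 1) and Benjamini-Hochberg adjustment over all 12787 genes tested, 0 of the 45 had an adjusted p under 0.05, the lowest being 0.184 for NDUFB11; over all genes tested 14 passed, 0.109%, with 0.0782% lower and 0.0313% higher in G. In the 17 alternative treatments of the data 0 members passed as well, and the lowest adjusted p there was 0.0871. By the authors' deposited table, no member (0 of 46) had a q-value under 0.05, against 0.0918% of all genes. An unadjusted limma p under 0.05 was found for 9 members, all lower in G; 6.82% of all tested genes were lower in G at that level and 17.3% passed it in either direction. By the authors' deposited table, an unadjusted p under 0.05 was listed for 6 members, NDUFB5, NDUFC2, NDUFAF4, NDUFA12, NDUFS6 and NDUFB8, and for 1.43% of all genes in the table. Of the genes tested here 5.08% had it, 5 of the 45 tested members among them, without NDUFAF4. Of the genes in the table, 28089 have no estimate in any library. Leaving out A replicate 1 gave 19 members at an unadjusted limma p under 0.05, against 21.2% of all tested genes. Leaving out A replicate 3 or G replicate 1 gave 5, against 12.1% and 13.0% of all tested genes. In bulk RNA, fewer cells of a kind and less RNA per cell cannot be told apart.

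The log2 change (G minus A, on the log2(FPKM + 1) scale) was below 0 for 36 of the 45 members, 80.0%, against 44.9% of all tested genes, and scaling each library to an equal sum of FPKM left 28 of 45 below 0 against 26.1% of all. The median change was -0.14 over the members and 0.02 over all tested genes as deposited, and -0.04 and 0.11 after equal scaling. Relative to the median of all genes, 40 members lay lower as deposited and 39 after equal scaling. All 3 G libraries lay below all 3 A libraries for 10 members, 22.2%, against 9.57% of all tested genes. They were NDUFB11, NDUFB10, NDUFS6, NDUFC2, NDUFB5, NDUFS7, NDUFAF3, NDUFA4, NDUFV2 and NDUFA10. All 3 G libraries lay above all 3 A libraries for NDUFAF7 alone among the 45, against 15.4% of all tested genes. In either direction the groups stood apart for 24.9% of all tested genes. These counts, and the groups called apart for single genes below, refer to the values as deposited. They were not repeated after equal scaling, under which narrow gaps may close.

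Transcript length and level moved with this direction, across the whole table. Among the 672 tested genes whose most abundant transcript is under 1000 bases and whose mean is at least 10 FPKM, 81.7% had a change below 0, with a median of -0.14. The 19 members among them all had a change below 0, with a median of -0.13. In that class all G libraries lay below all A libraries for 29.0% of all genes and for 2 of the 19 members, and 26.5% of all genes and 3 of the members were lower in G at an unadjusted p under 0.05. Among the 10455 tested genes with a most abundant transcript of 1000 bases or more, 41.7% had a change below 0, with a median of 0.03, and 9 of 16 members did, with a median of -0.03. Of those 16 members, 6 had all G libraries below all A libraries, against 8.58% of all genes of that length, and 4 were lower in G at an unadjusted p under 0.05, against 5.57%. Among short, abundant transcripts the median change of the members thus lay beside that of all such genes, and among long ones it lay below 0 while that of all such genes lay above 0. Across the 45 members, Pearson's r between the log2 change and the log10 transcript length was 0.33 and Spearman's rho 0.24, given as a description, since the points share the same 6 libraries. The part of transcript length in the members' changes was not tested.

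**Figure D2:**
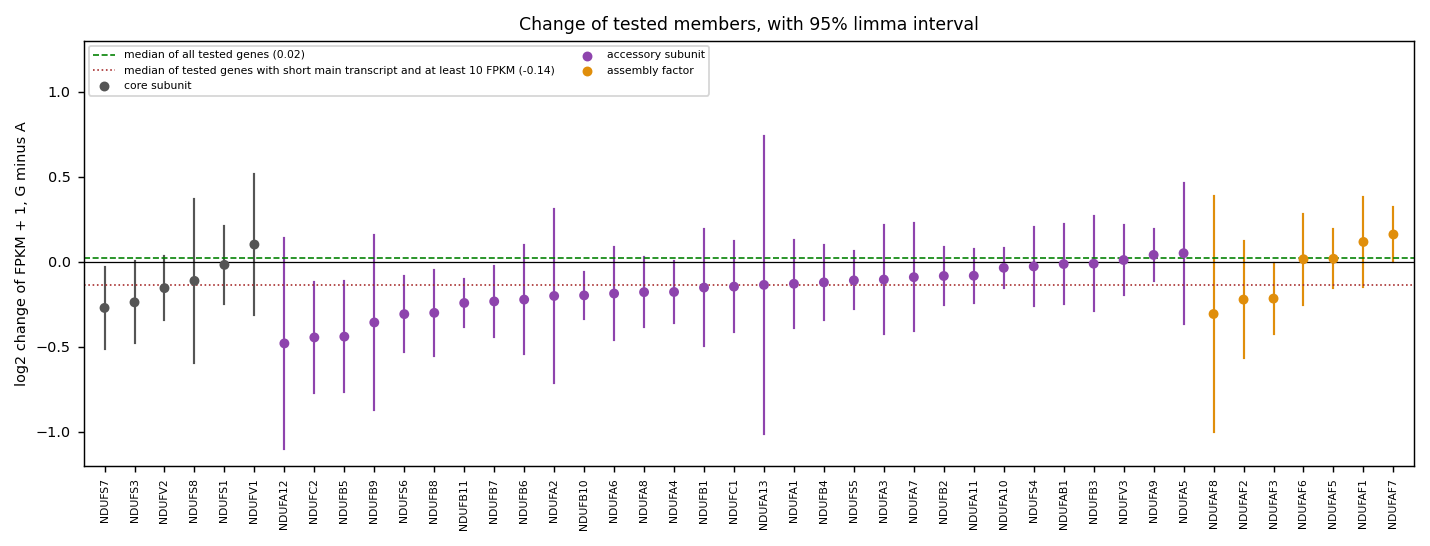
Log2 change (G minus A, log2(FPKM + 1) scale) of 44 of the 45 tested members with 95% intervals from limma, grouped by class, with the medians of all tested genes (dashed) and of tested genes with a most abundant transcript under 1000 bases and at least 10 FPKM (dotted). Of the points 36 lie below 0, and the intervals of NDUFA13 and NDUFAF8 are among the widest.

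Among the 7 core subunits 5 had a change below 0, with a median of -0.11 and a range of -0.27 to 0.10. That median was -0.01 after equal scaling, -0.001 without A replicate 3 and 0.02 without G replicate 2, so the position of the class as a whole relative to 0 depended on single libraries. No core subunit passed the test. NDUFS7 (19, 1383527 to 1395589, plus strand), which holds the iron-sulfur cluster next to ubiquinone, had 3.91, 4.31 and 4.07 FPKM in G and 4.41, 5.85 and 5.28 FPKM in A. Every G library lay below every A library, with means of 4.10 ± 0.206 in G and 5.18 ± 0.726 in A (SD, n = 3 each). The log2 change was -0.27 (SE 0.10) with an adjusted p of 0.251 by limma.

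NDUFS3 (11, 47565336 to 47584562, plus strand), a structural subunit of the Q module, had 7.66, 9.66 and 8.57 FPKM in G and 9.42, 11.2 and 10.4 FPKM in A. The groups overlapped through G replicate 2 and A replicate 1, and the log2 change was -0.24 (SE 0.10, limma adjusted p 0.290). Its locus overlaps PTPMT1 on the same strand, which had a mean of 13.9 FPKM, and reads of the overlap may have been divided between them. NDUFV2 (18, 9102630 to 9134345, plus strand), an iron-sulfur subunit of the N module, had 25.7, 22.7 and 26.7 FPKM in G and 26.7, 29.9 and 27.3 FPKM in A. The highest G and the lowest A library were nearly equal, and the log2 change was -0.16 (SE 0.08, limma adjusted p 0.361).

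Other core subunits showed smaller changes or wider spreads. NDUFV1, which binds NADH and the flavin, had 22.2, 19.9 and 27.8 FPKM in G and 18.2, 26.8 and 20.2 FPKM in A, a log2 change of 0.10. NDUFS1, the largest subunit of the matrix arm, had 5.65, 4.62 and 4.59 FPKM in G and 5.25, 4.58 and 5.23 FPKM in A, a change of -0.02. The libraries of both groups were interleaved in NDUFV1 and NDUFS1. NDUFS8, an iron-sulfur subunit of the Q module, ranged from 9.21 to 15.5 FPKM in G and from 11.5 to 16.0 FPKM in A, and its 95% interval, -0.59 to 0.37, covers changes of 1.5-fold downward.

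Of the 31 accessory subunits 28 had a change below 0, with a median of -0.15 as deposited and -0.05 after equal scaling, and a range of -0.48 to 0.05. The distal membrane arm, built in part from the NDUFB subunits, had the lowest median of the 4 modules as listed here. All 11 genes listed for it had a change below 0, with a median of -0.22. Of them, 5 had an unadjusted limma p under 0.05. At that level 6.82% of all tested genes were lower in G, and 26.5% of those with a short transcript and at least 10 FPKM. Of the 5, NDUFB11, with a most abundant transcript of 1388 bases, and NDUFB5, with a mean of 9.26 FPKM, are outside that class. The 9 genes listed for the proximal arm were also all below 0, with a median of -0.13 and 1 at an unadjusted limma p under 0.05. Of the genes listed for the N module 6 of 8 and for the Q module 3 of 5 were below 0, with medians of -0.09 and -0.11. NDUFA4 apart, the subunits placed in no module were NDUFA6, NDUFA7, NDUFA9 and NDUFAB1. Their changes were -0.19, -0.09, 0.04 and -0.01. After equal scaling the medians were -0.12 for the distal arm, -0.02 for the proximal arm, 0.01 for the N module and -0.01 for the Q module. With 1 library omitted, that of the Q module moved to -0.22 (A replicate 1 omitted), -0.015 (A replicate 3) and 0.015 (G replicate 2). A difference between modules was not tested.

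In the distal arm, NDUFB11 (X, 47142216 to 47145504, minus strand), a small subunit with a single membrane span, had the lowest p of all members. It had 28.7, 31.7 and 28.5 FPKM in G and 35.1, 35.7 and 34.9 FPKM in A, so the groups stood apart. The means were 29.6 ± 1.80 FPKM in G and 35.2 ± 0.430 FPKM in A (SD, n = 3 each), and the log2 change was -0.24 (SE 0.06, 95% interval -0.38 to -0.10, limma adjusted p 0.184). Its values did not hang on A replicate 1, which lay between the other A libraries. NDUFB10 (16, 1959538 to 1961975, plus strand), a subunit on the intermembrane space side, had 52.2, 52.3 and 49.0 FPKM in G and 55.4, 61.3 and 60.0 FPKM in A. The groups did not overlap, and the log2 change was -0.20 (SE 0.06, limma adjusted p 0.203).

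NDUFB5 (3, 179604690 to 179627647, plus strand), a membrane subunit of the distal arm, had 8.02, 6.87 and 8.11 FPKM in G and 8.80, 10.9 and 12.8 FPKM in A. Every A library was higher than every G library, A replicate 1 least so, and the log2 change was -0.44 (SE 0.14, limma adjusted p 0.209). NDUFB8 (10, 100523740 to 100530000, minus strand), whose protein is widely used as a marker of assembled complex I, had 24.4, 26.5 and 29.6 FPKM in G and 29.2, 34.2 and 36.5 FPKM in A. The groups met at G replicate 3 and A replicate 1, and the log2 change was -0.30 (SE 0.10, limma adjusted p 0.242). NDUFB7 (19, 14566078 to 14572066, minus strand), another subunit on the intermembrane space side, had 141, 165 and 148 FPKM in G and 161, 187 and 187 FPKM in A. Its highest G library exceeded its lowest A library, and the log2 change was -0.23 (SE 0.09, limma adjusted p 0.251).

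In the proximal arm, NDUFC2 (11, 78068297 to 78079862, minus strand), a membrane subunit beside ND2, had 15.3, 17.7 and 18.2 FPKM in G and 19.3, 27.4 and 24.5 FPKM in A. The groups stood apart, with A replicate 1 closest to G, and the log2 change was -0.45 (SE 0.13, 95% interval -0.77 to -0.12, limma adjusted p 0.205). The readthrough gene NDUFC2-KCTD14, which shares its exons, was low, at a mean of 0.489 FPKM. NDUFA8, on the intermembrane space side of this arm, had 43.0, 45.2 and 46.5 FPKM in G and 46.0, 57.1 and 50.3 FPKM in A, a log2 change of -0.18 with overlapping groups.

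In the N module, NDUFS6 (5, 1801400 to 1816605, plus strand), a zinc-binding subunit added late in assembly, had 38.3, 36.2 and 37.8 FPKM in G and 40.5, 49.1 and 50.9 FPKM in A. The 3 G libraries were close to each other and below all A libraries, and the log2 change was -0.31 (SE 0.09, limma adjusted p 0.204). NDUFA12, a subunit of the same module and a paralogue of the assembly factor NDUFAF2, had the most negative change of all tested members, -0.48. NDUFA12 had 9.78, 8.16 and 8.23 FPKM in G and 10.6, 9.37 and 19.6 FPKM in A, and its limma adjusted p was 0.386. The third A library stood far above the other libraries, which overlapped.

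NDUFA4 (7, 10931943 to 10940153, minus strand) was first described as a complex I subunit and is now counted with cytochrome c oxidase, complex IV. It had 31.2, 30.3 and 31.5 FPKM in G and 31.6, 36.3 and 37.9 FPKM in A. G replicate 3 and A replicate 1 nearly touched, and the log2 change was -0.18 (SE 0.08, limma adjusted p 0.295). The most tightly measured subunit was NDUFA10, of the nucleoside kinase family, with 17.7, 17.5 and 17.4 FPKM in G and 17.8, 17.7 and 18.5 FPKM in A, a change of -0.04. The groups did not overlap there either, but the difference was small, and its 95% interval, -0.15 to 0.08, included 0.

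Some accessory subunits were measured with little precision. NDUFA13, also known as the cell death regulator GRIM-19, had 17.8, 9.96 and 15.2 FPKM in G and 19.1, 21.8 and 8.66 FPKM in A, and its 95% interval ran from -1.01 to 0.74. NDUFB9 had 6.46, 9.38 and 6.65 FPKM in G and 13.3, 8.94 and 7.79 FPKM in A, with overlapping groups. Over the 45 members the 95% interval reached to either side of the log2 change by a median of 0.24 and ran from 0.12 to 0.87. On the FPKM + 1 scale, the intervals of 8 members reached past a 1.5-fold lower level in G, and that of 1 member, NDUFA13, past a 1.5-fold higher level. In FPKM itself the same intervals span larger folds at low levels, so further members of low level may reach past 1.5-fold. Accessory subunits with a change above 0 were NDUFA9, NDUFA5 and NDUFV3, at 0.04, 0.05 and 0.01.

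Of the 7 assembly factors tested, 3 had a change below 0, with a median of 0.01 and a range of -0.31 to 0.16, and none passed the test. The sign of this median turned in several treatments of the data, with -0.04 after quantile normalization, -0.10 without the filter, and -0.05, -0.03 and -0.03 without A replicate 3, G replicate 2 and G replicate 3. NDUFAF3 (3, 49020459 to 49023495, plus strand), the partner of NDUFAF4, had 4.97, 5.20 and 4.98 FPKM in G and 5.27, 6.41 and 6.50 FPKM in A. The groups stood apart by a small margin at A replicate 1, and the log2 change was -0.22 (SE 0.09, limma adjusted p 0.275). NDUFAF7 (2, 37231631 to 37253403, plus strand), a methyltransferase, had 4.74, 4.53 and 5.18 FPKM in G and 4.30, 4.16 and 4.14 FPKM in A. All G libraries were higher, with a log2 change of 0.16 (SE 0.07, limma adjusted p 0.297).

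NDUFAF2 (5, 60945205 to 61153026, plus strand), which holds the place of NDUFA12 in late intermediates, had 7.20, 4.83 and 4.92 FPKM in G and 6.74, 6.29 and 6.98 FPKM in A. G replicate 1 was the highest of all 6 libraries, and the log2 change was -0.22 (SE 0.14, limma adjusted p 0.456). NDUFAF8, a partner of NDUFAF5, had 4.44, 6.12 and 5.93 FPKM in G and 4.04, 8.90 and 9.19 FPKM in A, with A replicate 1 the lowest of all 6. NDUFAF1, part of the complex that builds the membrane arm near ND2, had 3.51, 4.63 and 3.52 FPKM in G and 3.75, 3.22 and 3.49 FPKM in A. NDUFAF5 and NDUFAF6 had log2 changes of 0.02 and 0.01.

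NDUFAF4 (6, 96889315 to 96897891, minus strand) carries the significance mark of the authors' deposited table, as do 0.367% of all genes, and is the only member to do so. It had 0.521, 0.423 and 0.366 FPKM in G and 0.869, 0.944 and 0.848 FPKM in A. The groups stood apart, at 0.437 ± 0.0787 FPKM in G and 0.887 ± 0.0508 FPKM in A (SD, n = 3 each), and A replicate 1 lay between the other A libraries. In the authors' deposited table its log2 ratio was -1.02 with a p-value of 0.011 and a q-value of 0.586. It lay under the filter here. With all genes kept, the log2(FPKM + 1) change was -0.39 (SE 0.08), which understates the ratio at so low a level, with an unadjusted p of 0.0035 and an adjusted p of 0.295 by limma.

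A replicate 1 often lay below the other A libraries. It was the lowest A library for 28 of the 45 members, 62.2%, against 33.3% of all tested genes, 64.0% of those with a short transcript and at least 10 FPKM, 76.3% of the subunits of complexes II to V and 56.4% of the mitochondrial ribosomal protein genes. It was also the library with the high FOXM1 level given above. The median deviation of the members from their own mean was -0.09, -0.08 and -0.04 in G and -0.04, 0.11 and 0.13 in A. Without A replicate 1 the median change of the members was -0.21, against 0.03 for all tested genes, 36 members were below 0, and 19 had an unadjusted p under 0.05, all lower in G, against 21.2% of all genes in either direction. In that fit 0 members passed, and the lowest limma adjusted p was 0.0871, for NDUFS6 at a log2 change of -0.41. The median coefficient of variation of the members was 9.05% in G, 11.1% in A and 5.26% in A without replicate 1, which leaves 2 libraries. Over all tested genes it was 8.53%, 9.14% and 6.29%. Leaving out a library that is mostly the lowest of A lowers the change of those members by itself. What set A replicate 1 apart was not tested.

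**Figure D3:**
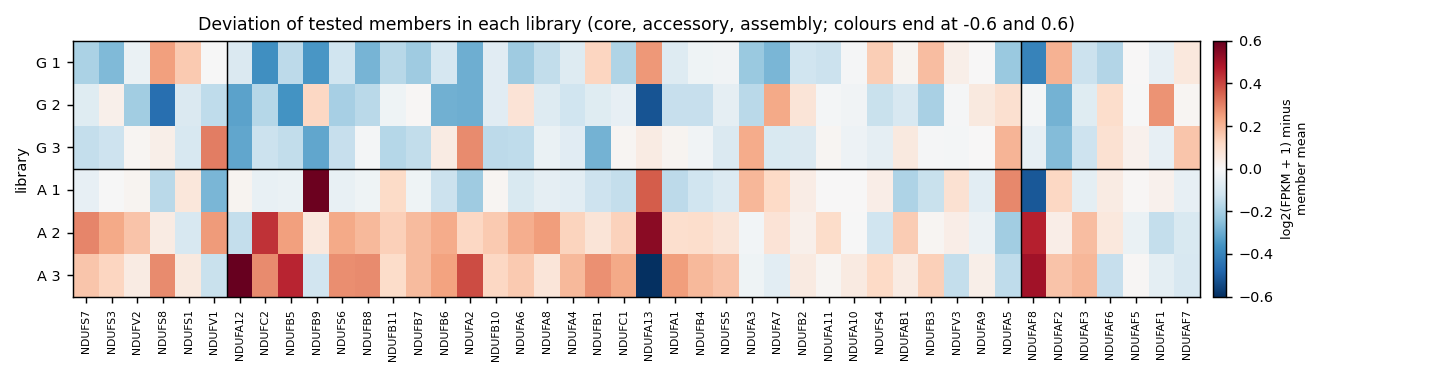
Deviation of 44 of the 45 tested members from their own mean over the 6 libraries (log2(FPKM + 1) scale), with 1 row per library, G above A, 1 column per member in the order core, accessory and assembly, red for higher and blue for lower, and colours that end at -0.6 and 0.6. A replicates 2 and 3 are mostly red, with medians of 0.11 and 0.13, while A replicate 1, at a median of -0.04, resembles the G libraries, at -0.09 to -0.04.

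Summed over the 37 nuclear subunits without NDUFA4, the level was 1258, 1239 and 1285 FPKM in G and 1275, 1451 and 1494 FPKM in A. The means were 1260 ± 23.1 in G and 1407 ± 116 in A (SD, n = 3 each), a ratio of 0.896, and A replicate 1 lay within the G range. As a share of all summed FPKM, these subunits took 0.493%, 0.488% and 0.503% in G and 0.472%, 0.523% and 0.542% in A. The ratio of the mean shares was 0.967, and A replicate 1 had the lowest share of all libraries. The sums that follow are as deposited. The sum over the 11 genes listed for the distal arm was 369, 382 and 370 FPKM in G and 396, 445 and 454 FPKM in A. The ratio was 0.866, with no overlap as deposited. For the N module, the Q module and the proximal arm the ratios were 0.89, 0.944 and 0.907, each with overlapping groups. The 7 core subunits summed to 108.9, 94.2 and 110.6 FPKM in G and 99.6, 117.8 and 110.7 FPKM in A, interleaved. The assembly factors summed to 28.7, 29.6 and 28.8 FPKM in G and 28.8, 33.7 and 34.5 FPKM in A.

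The 7 complex I subunits encoded by mitochondrial DNA form the membrane core to which the nuclear subunits bind. All of them had a change below 0, with a median of -0.41, which was -0.16 with quantile normalization, and MT-ND3 and MT-ND1 passed the test. The call of MT-ND3 held in 8 of the 17 alternatives (adjusted p 0.0226 to 0.261) and that of MT-ND1 in 4 (0.0294 to 0.315). Both were lost without the filter, without the variance trend, with quantile normalization and with the replicate block (0.261 each). MT-ND1 was also lost with equal sums per library (limma adjusted p 0.0569), with equal sums outside the mitochondrial genome (0.0561) and with median-ratio factors (0.06). It was lost without any 1 library as well, and MT-ND3 without any 1 library other than A replicate 1. MT-ND3 had 990, 913 and 1015 FPKM in G and 1417, 1528 and 1520 FPKM in A (log2 change -0.61, limma adjusted p 0.0377). MT-ND1 had 3412, 3098 and 3227 FPKM in G and 4585, 5036 and 4641 FPKM in A (log2 change -0.55, limma adjusted p 0.046). MT-ND2, MT-ND4, MT-ND6, MT-ND5 and MT-ND4L had log2 changes of -0.57, -0.36, -0.41, -0.22 and -0.19, with limma adjusted p of 0.146 to 0.317. The 7 summed to 18660, 15910 and 16970 FPKM in G and 22190, 22850 and 22360 FPKM in A, and here A replicate 1 stood with the other A libraries.

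For each FPKM of nuclear subunits there were 14.8, 12.8 and 13.2 FPKM of mitochondrially encoded subunits in G and 17.4, 15.8 and 15.0 in A, or 13.6 ± 1.06 in G and 16.0 ± 1.25 in A (SD, n = 3 each). The groups stood apart by a narrow margin, and this ratio was not tested. All mitochondrial transcripts took 19.7%, 17.7% and 18.6% of the summed FPKM in G and 22.2%, 22.1% and 22.1% in A. Of the sum outside the mitochondrial genome, the nuclear subunits took 0.614%, 0.594% and 0.618% in G and 0.606%, 0.671% and 0.695% in A.

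**Figure D4:**
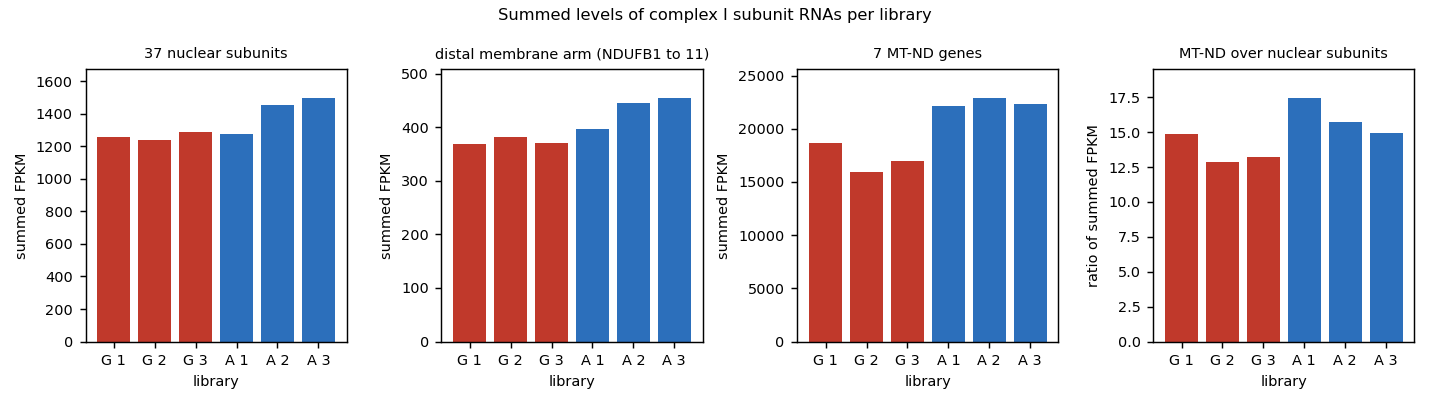
Summed FPKM of the 37 nuclear subunits, of the distal arm and of the 7 mitochondrially encoded subunits, and the ratio of the mitochondrially encoded to the nuclear sum, with 1 bar per library, G (red) left of A (blue). The mitochondrially encoded sums stand apart, at 15910 to 18660 in G and 22190 to 22850 in A, while the sums of the 37 nuclear subunits overlap through A replicate 1.

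Promoter sequences were read because the nuclear respiratory genes are known for shared binding sites of NRF1, of ETS factors such as GABP and of YY1. RefSeq promoters (GRCh38.p14, 250 bases before to 50 after the gene's start) were matched by symbol for 39 of the 46 members. Both strands were searched for GCGCATGCG (NRF1), for GCGCNTGCG, which includes the first, for CCGGAAG (ETS and GABP) and for AAGATGGC (YY1). The background was 1 promoter for each of the 27305 genes of the RefSeq set, not limited to genes expressed here or coding for proteins. GCGCATGCG was found in 5 members, 12.8%, against 2.10% of that background, and GCGCNTGCG in 10 members, 25.6%, against 8.05%. A background of expressed genes was not used. CCGGAAG was found in 6 members, 15.4%, against 10.7%, and AAGATGGC in 6 members, 15.4%, against 3.03%. The median log2 change was -0.13 over the 17 tested members with any of these letters and -0.15 over the 21 without. The 4 promoters below, with matches in capitals, belong to the members of lowest p whose RefSeq start is also the start of their most abundant transcript, and they were chosen after the values were seen. They are NDUFB10 (chr16:1959288-1959587, plus strand, no match), NDUFB7 (chr19:14572017-14572316, minus strand, 1 ETS match), NDUFS7 (chr19:1383657-1383956, plus strand, 1 NRF1 and 1 YY1 match) and NDUFS3 (chr11:47578824-47579123, plus strand, 2 ETS matches). No match says only that these letters are not in this window.
NDUFB10: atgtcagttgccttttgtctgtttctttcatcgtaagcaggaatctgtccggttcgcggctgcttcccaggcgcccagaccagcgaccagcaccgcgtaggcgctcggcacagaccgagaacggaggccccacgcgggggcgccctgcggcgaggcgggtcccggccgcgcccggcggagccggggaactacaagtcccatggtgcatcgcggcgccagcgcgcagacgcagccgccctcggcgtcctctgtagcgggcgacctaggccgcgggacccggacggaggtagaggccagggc
NDUFB7: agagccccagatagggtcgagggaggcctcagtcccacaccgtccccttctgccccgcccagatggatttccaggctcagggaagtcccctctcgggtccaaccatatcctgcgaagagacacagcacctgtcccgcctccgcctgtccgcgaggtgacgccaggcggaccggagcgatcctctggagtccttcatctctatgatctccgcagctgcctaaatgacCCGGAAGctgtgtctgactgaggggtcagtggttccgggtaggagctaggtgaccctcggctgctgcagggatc
NDUFS7: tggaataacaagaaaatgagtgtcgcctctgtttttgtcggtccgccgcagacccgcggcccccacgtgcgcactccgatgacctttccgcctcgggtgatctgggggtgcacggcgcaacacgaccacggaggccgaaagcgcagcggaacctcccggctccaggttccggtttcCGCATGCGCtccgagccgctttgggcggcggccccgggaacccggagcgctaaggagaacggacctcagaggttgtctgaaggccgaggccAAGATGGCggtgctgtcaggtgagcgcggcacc
NDUFS3: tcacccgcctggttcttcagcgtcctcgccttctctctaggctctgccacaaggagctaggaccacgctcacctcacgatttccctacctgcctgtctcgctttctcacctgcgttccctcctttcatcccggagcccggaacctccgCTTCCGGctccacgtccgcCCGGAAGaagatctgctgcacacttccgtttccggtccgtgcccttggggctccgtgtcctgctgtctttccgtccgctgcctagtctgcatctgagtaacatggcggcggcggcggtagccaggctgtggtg

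The isoforms of the members were compared in the deposited transcript table. Of 387 member transcripts 152, from 45 genes, passed the filter, and 1 passed the test with limma over 29990 transcripts, where 44 passed in all, 0.147%. At an unadjusted p under 0.05 there were 10 member transcripts, 6 lower and 4 higher in G, which is 6.58% against 7.81% of all transcripts. The called transcript was ENST00000482604, a protein-coding NDUFB5 isoform of 671 bases and 7 exons. It was listed at 0.0001, the value the table gives where there is no estimate, in all 3 G libraries, and at 19.5, 7.16 and 13.5 FPKM in A. The log2(FPKM + 1) change was -3.75 (SE 0.35, limma adjusted p 0.0477). This transcript passed the filter through the A libraries alone. Its 3 G values are the same floor value, so the SE and p hold no measured spread of G, and nothing is concluded from the call. Of 17 alternatives 6 kept this call and 11 lost it, with adjusted p of 0.0274 to 0.483, and without A replicate 1 it was 0.078.

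Other NDUFB5 isoforms differed in the same libraries. The long protein-coding isoform ENST00000259037, of 4199 bases, had 5.96, 6.96 and 6.09 FPKM in G and 4.14, 4.09 and 4.04 FPKM in A, higher in every G library (log2 change 0.52, limma adjusted p 0.452). The retained-intron transcript ENST00000476587 had 6.95, 1.14 and 0.798 FPKM in G and, in A, no estimate in replicate 1 and 50.7 and 59.2 FPKM in the others. Weighted by length, ENST00000259037 took 53.1%, 72.5% and 53.7% of the NDUFB5 signal in G and 33.6%, 26.8% and 22.5% in A. ENST00000482604 took 25.3%, 7.48% and 12.0% of it in A and had no estimate in G. The lower NDUFB5 level in G at the gene thus went with isoforms of higher and of lower level in G, and an isoform without an estimate cannot be told apart from one that was present but not assembled.

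**Figure D5:**
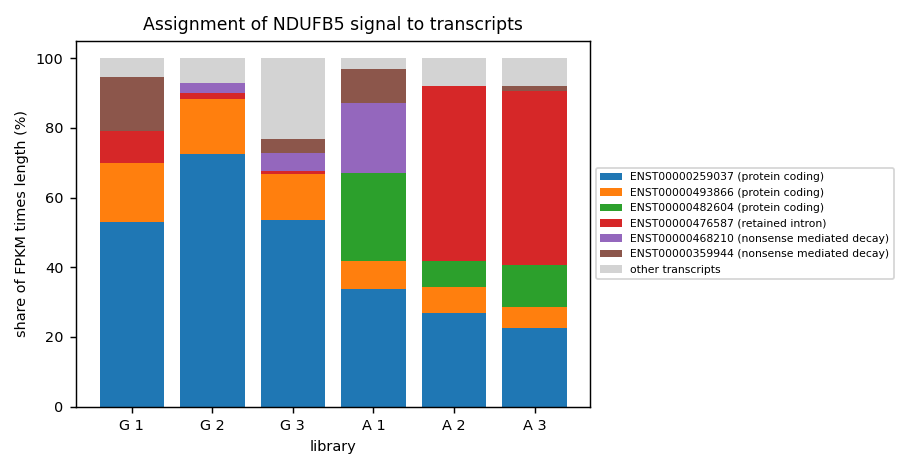
Share of the NDUFB5 signal (FPKM times length, percent) held by each isoform in each library, G left of A. ENST00000259037 holds 53.1% to 72.5% in G and 22.5% to 33.6% in A, and ENST00000476587 holds 50.2% and 49.9% in A replicates 2 and 3 and none in A replicate 1.

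In other members the most abundant transcript did not always follow the gene. That of NDUFB11, ENST00000377811, had 18.5, 20.8 and 19.0 FPKM in G and 22.8, 22.4 and 22.3 FPKM in A, apart as at the gene (log2 change -0.20, limma adjusted p 0.668). That of NDUFS6, ENST00000274137, had 50.9, 48.2 and 50.4 FPKM in G and 54.1, 65.5 and 68.0 FPKM in A (log2 change -0.31, limma adjusted p 0.601). That of NDUFB10, ENST00000268668, had 61.9, 50.0 and 52.2 FPKM in G and 56.2, 59.6 and 52.2 FPKM in A, with overlapping groups and a log2 change of -0.04. NDUFAF1 had an isoform, ENST00000560978, with no estimate in G and 2.80, 1.57 and 3.64 FPKM in A, and a further one, ENST00000260361, at 4.14, 4.09 and 3.51 FPKM in G and 2.68, 2.50 and 2.15 FPKM in A. Neither passed the test. The deposited gene values are not sums of the transcript values, as NDUFS6 shows.

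Genes that work with complex I without carrying an NDUF symbol were read from the same fit. Of 18 such genes 17 were tested, 9 had a change below 0, the median was -0.01 (0.06 after equal scaling) and 0 passed. At an unadjusted limma p under 0.05, 4 were lower in G, as were 6.82% of all tested genes. TMEM70, a membrane protein of complex I and ATP synthase assembly, had 2.21, 1.98 and 1.88 FPKM in G and 3.09, 2.89 and 2.80 FPKM in A (log2 change -0.38, limma adjusted p 0.162). OXA1L, the insertase of the inner membrane, had 25.2, 30.1 and 30.2 FPKM in G and 33.5, 33.6 and 33.0 FPKM in A (log2 change -0.22, limma adjusted p 0.242). Both were apart between the groups, as were PYURF and DMAC1, also lower in G, and COA1, higher in G. Over all tested genes, 9.57% were apart with G lower and 15.4% with G higher. Of 14 regulators of nuclear respiratory genes 10 were tested, 6 had a change below 0, the median was -0.04 (0.05 after equal scaling) and 0 passed. The nuclear receptor gene ESRRA had 23.3, 24.5 and 22.4 FPKM in G and 25.1, 26.6 and 27.2 FPKM in A (log2 change -0.16, limma adjusted p 0.251). PPRC1, a coactivator related to PGC-1, had 2.42, 2.34 and 2.23 FPKM in G and 2.72, 2.36 and 2.81 FPKM in A, with overlapping groups (log2 change -0.12, limma adjusted p 0.458).

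The nuclear subunits of the other complexes and the proteins of the mitochondrial ribosome were read beside the members. Of 38 tested subunits of complexes II to V, 34 had a change below 0, with a median of -0.14, which was -0.03 after equal scaling, and 0 passed. The cytochrome c oxidase subunit COX5B and the complex III subunit UQCR10 had the lowest p there. COX5B had 96.4, 98.1 and 100.3 FPKM in G and 118.3, 117.8 and 134.5 FPKM in A (log2 change -0.32, limma adjusted p 0.159). UQCR10 had 90.8, 95.9 and 93.2 FPKM in G and 104.3, 121.7 and 118.2 FPKM in A (log2 change -0.29, limma adjusted p 0.182). Of 78 tested genes of mitochondrial ribosomal proteins, 65 had a change below 0, with a median of -0.11, which was -0.01 after equal scaling, and 0 passed. The lowest p there belonged to MRPL37, with 40.4, 38.8 and 40.0 FPKM in G and 32.2, 34.4 and 32.1 FPKM in A, higher in G (log2 change 0.27, limma adjusted p 0.159), and to MRPL34, with 15.3, 16.1 and 15.7 FPKM in G and 18.0, 21.8 and 20.6 FPKM in A (log2 change -0.34, limma adjusted p 0.182). A difference between these lists and the members was not tested.

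Some members share sequence with other genes. There were 13 members whose locus overlaps a gene of at least 1 FPKM, 4 of them on the same strand (NDUFB8, NDUFS3, NDUFB2 and NDUFA13). The strand setting of the counting is not stated in the labels, so overlaps on the opposite strand, found for 12 members, may also have mixed reads. The table holds 59 NDUF pseudogenes, of which 1, NDUFB4P12, reached a mean of 1 FPKM, at 1.79 FPKM, and 19 members have a pseudogene named after them.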

How the data were processed

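RNA of 6 libraries of PC9 cells, 3 with G and 3 with A, was sequenced as read pairs after poly(A) selection, with the second cDNA strand marked by dUTP and removed, per the labels' protocols. Tools named in the submitters' processing notes are StringTie 1.3.4d, HISAT2 2.0.4 and cutadapt 1.9. The notes name a mouse build, while the deposited features carry human Ensembl identifiers at GRCh38 positions. The authors deposited FPKM for each gene and transcript, already normalized for length and depth. The deposited table also gives the authors' fold ratio of group means, its log2, a p-value and a q-value, and how these p-values were computed is not given in the sources used here. The deposited log2 equals the log2 ratio of group means within 1e-06 for all 46 members.

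Here log2(FPKM + 1) was tested with limma 3.58.1 (trend, R 4.3.3), G minus A, for genes or transcripts at 1 FPKM or more in at least 3 of 6 libraries, with Benjamini-Hochberg adjustment over all of them and a threshold of 0.05. The fit was tested on data simulated with the spread of these libraries, with 200 genes of 4 FPKM or more changed in each of 3 runs. It recovered 4.5% of 1.3-fold, 61% of 1.5-fold and 84.5% of 2-fold changes, with 0, 16 and 26 false calls. Changes of 1.3-fold would thus mostly go uncalled. The folds were set on the FPKM + 1 scale, and the spread was drawn for each gene alone. Shifts shared by the genes of a library were therefore not simulated, and members under 4 FPKM are not covered. At most 26.7% of low values came out as whole reads within 0.02 of a read, where the tolerance alone gives 4%, so no count test was run. No 2 libraries held identical values. The members and lists were chosen with earlier results of these data known. Values are given in full for the 3 core, 8 accessory and 3 assembly members of lowest p, the 2 highest and 2 lowest in level, members under the filter or marked by the authors, and the 2 genes of lowest p in each linked list; further members named were chosen after their values were seen. 1 member enters the counts, medians and sums and is not otherwise reported here. As alternatives, other pseudocounts, filters, scalings and variance models, a replicate block and the omission of each library were run.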

Additional observations from a re-analysis of the deposited data

How the results depend on the processing

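The 0 members called stayed at 0 in each of the 17 alternatives. Over all genes the 14 calls became 1 without the filter, 9 with median-ratio factors, 6 with quantile normalization, 4 without the variance trend, 0 with the replicate block, 54 by the authors' q-value and 5 to 20 when 1 library was left out. The 1 member transcript became 0 with a pseudocount of 0.01, without the filter, with a filter of 5 FPKM, with equal sums in all or outside the mitochondrial genome, and with the replicate block, and was 0 to 1 when 1 library was left out. The 9 members at an unadjusted p under 0.05, all lower in G, became 3 with equal sums, of which 2 were lower in G (24.5% of all genes in either direction). They became 6 by the authors' p-value. Of those 6, 5 were tested here, where 5.08% of all tested genes had such a p-value. With 1 library left out they were 5 to 19 (11.1% to 21.2% of all genes). The core median of -0.113 became -0.012 with equal sums and ran from -0.187 to 0.021 with 1 library left out. The accessory median of -0.147 became -0.048 with equal sums and ran from -0.241 to -0.115. The assembly median of 0.014 became -0.102 without the filter, -0.223 with a filter of 5 FPKM, 0.083 and 0.045 with equal sums in all and outside the mitochondrial genome, and -0.041 with quantile normalization, and ran from -0.05 to 0.026. For the 17 members described in full and tested, 283 of 286 recomputed values kept their direction and their side of the threshold. NDUFS5 turned to 0.0216 with quantile normalization, and NDUFAF5 to -0.0373 with quantile normalization and to -0.000217 with median-ratio factors. Over all 45 tested members, 27 kept their sign in every alternative and 18 turned in at least 1, NDUFV1, NDUFS1, NDUFS8, NDUFA13, NDUFA10, NDUFA9, NDUFA5, NDUFV3 and NDUFAF6 among them, the largest change as deposited among the 18 being 0.137 in size. The cause of these shifts was not tested. Libraries with the same replicate number deviated together with r of 0.073, 0.015 and 0.040, so the numbers were not taken as pairs; with the replicate block 10 members had an unadjusted p under 0.05, against 16.8% of all genes. Depth is unknown, and 3 libraries a group limit the precision to the intervals given.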
